A study of Mus musculus with 6 samples.

Results

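Splicing factor genes code for the proteins that recognise and remove introns from newly made RNA. They were taken as the gene symbols beginning with Srsf and a digit, Sf3a or Sf3b, Hnrnp, Snrp, Prpf and a digit, or U2af in the retinal FPKM files (FPKM is the number of fragments divided by transcript length and by depth). The rule matched 68 symbols, of which 4 were processed pseudogenes and were counted apart, leaving 64 genes. Of these, 55 had at least 1 Ensembl transcript in all 6 files, out of 25935 such genes in the series. The families held 10 Srsf, 9 Sf3a and Sf3b, 19 Hnrnp, 12 Snrp, 12 Prpf and 2 U2af genes, of which 7, 9, 16, 11, 10 and 2 had a transcript in all 6 files.

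Splicing is carried out by the spliceosome, an assembly of small nuclear ribonucleoproteins (snRNPs), to which the Snrp genes contribute. Each snRNP is a small RNA with its own partner proteins and, in most of them, a ring of Sm proteins. The U2AF proteins bind the end of the intron, the SF3a and SF3b complexes anchor the snRNP that pairs with the branch point, and the Prpf proteins act in the assembly and remodelling of the complex, while SR proteins (Srsf) and heterogeneous nuclear ribonucleoproteins (Hnrnp) bind the transcript and help choose which sites are used. Retinal neurons splice many genes in their own way, and inherited mutations of several Prpf genes lead to degeneration of photoreceptors in people.

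The study asked what stem cell factor (SCF), the ligand of the receptor c-kit, does in a retina injured by N-methyl-D-aspartate (NMDA), a glutamate receptor agonist that kills retinal ganglion cells. All libraries came from wild type C57BL/6 mice labelled as being in postnatal week 5, and all retinas had received NMDA in the vitreous. The NMDA + PBS group (3 libraries, labelled NMDA) was given PBS and the NMDA + SCF group (3 libraries) was given recombinant SCF by the same route, both 2 days after NMDA, and by the methods and text of the study cells for sequencing were taken 1 week after SCF. The sources used here do not say how many animals stand behind a library, so p values measure the spread between libraries, which may be technical.

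The clean reads of the libraries ranged from 44925938 to 48783182, and FPKM values corresponded to totals of 3404307, 3977074 and 4440563 fragments for the NMDA + PBS libraries and of 3426303, 3479952 and 3458458 fragments for the NMDA + SCF libraries, in the order of their replicate numbers. The files did not all list the same transcripts. NMDA + PBS replicate 1 and the 3 NMDA + SCF libraries had one list (A), and the 2 remaining controls had another (B). Throughout, values of a group are given in the order of replicates 1, 2 and 3. Treatment could therefore be compared within list A only against a single control library, and no library of the NMDA + SCF group used list B. What belongs to the list and what belongs to the animals of NMDA + PBS replicates 2 and 3 cannot be told apart. For this reason each splicing factor gene is given below in all 6 libraries, and its difference is also given against NMDA + PBS replicate 1 alone, a value with no test.

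Gene levels were sums of FPKM over the transcripts in all 6 files. No splicing factor gene differed between the groups at an adjusted p of 0.05 (0 of 55, limma with Benjamini-Hochberg adjustment over 25202 genes), as for the table as a whole (0 called, 0%). The smallest adjusted p among the 55 genes was 0.536. At an unadjusted limma p of at most 0.05 there were 10 splicing factor genes, against 2324 genes or 9.22% of the whole table. Of the 10, 6 were higher with SCF (4.33% of all genes were) and 4 were lower (4.9% of all genes were). The limma count at the same adjusted p was 2 genes in the whole table and 0 splicing factor genes when voom was applied to the recovered fragments. Without NMDA + PBS replicate 1, limma called 849 genes of the whole table and 7 splicing factor genes (Hnrnpa0, Sf3a1, Sf3a3, Sf3b5, Snrpd2, Snrpf and Srsf6) at an adjusted p of 0.05. However, that fit sets the 3 NMDA + SCF libraries, all of list A, against controls that are all of list B. Leaving out any other library gave 0 such genes, and the splicing factor genes at an unadjusted p of at most 0.05 then numbered 4 or 3 without NMDA + PBS replicate 2 or 3 and 5, 1 or 3 without NMDA + SCF replicate 1, 2 or 3, where the whole table had 2197, 1666, 1430, 1320 and 1214 in the same order. With the transcript list as a term, 53 genes of the whole table and 0 splicing factor genes were called, in a contrast that rests on 1 control library assumed to vary like the others.

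The groups did not overlap for 10 splicing factor genes that were higher with SCF, against 7.63% of all genes, and for 4 that were lower, against 6.45% of all genes. With 3 libraries against 3, the smallest p an exact two-sided permutation test can give is 0.1, and each of these 14 genes has that value.

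The middle of the list lay close to 0. The median log2 fold change of the 55 genes, on the log2(FPKM + 1) scale, was 0.04, with 33 genes above 0 and 22 below. The median of all 25202 genes was -0.01. Among genes with a mean of at least 1 FPKM, the median was 0.04 for 53 splicing factor genes and 0.07 for all 14013. The members' median was -0.07 after upper quartile scaling and -0.15 after removal of mitochondrial genes, where that of all genes was -0.05 and -0.09. Both settings rescale all genes of a library by the same factor, but on the log2(FPKM + 1) scale low genes move less. In both, the members' median went from above that of all genes to below it. The sign of the list's median thus depended on the scaling and is not read as a result. The members' median was -0.02 with voom and -0.13 without NMDA + PBS replicate 1, against -0.015 and -0.03 for all genes. Single genes ranged from -3.47 to 3.27. In the fit of all 6 libraries the list did not move together in one direction. Against NMDA + PBS replicate 1 alone, 43 of the 55 genes lay above 0, where 14272 of all 25202 genes did.

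SF3a and SF3b together hold the branch point in place, and they made up the family with the highest median fold change, 0.56 over 9 genes, of which 6 lay above 0 (0.44 after upper quartile scaling and 0.36 without mitochondrial genes). That median was the value of Sf3a2, a gene with 8 to 22 fragments in each library. Over all listed transcripts the family median was 0.40, with 5 genes above 0. Against NMDA + PBS replicate 1 alone the family median was 0.17, below the medians of the Snrp (0.36), Hnrnp (0.32), U2af (0.26) and Srsf (0.22) genes. Sf3b4, an SF3b subunit that contacts the RNA upstream of the branch point, was at 134, 113 and 93.3 FPKM in the NMDA + PBS libraries and at 171, 169 and 175 FPKM in the NMDA + SCF libraries. All 3 NMDA + SCF libraries were above all 3 controls, and they differed among themselves by far less than the controls did. The means were 113 ± 20.5 (SD, n = 3) and 172 ± 2.78 (SD, n = 3). Its log2 difference was 0.61 (SE 0.19, limma unadjusted p = 0.0128, adjusted p = 0.536), the smallest p of the list, and 0.35 against NMDA + PBS replicate 1 alone. The gene lies at chr3:96172332-96177564 on the plus strand (GRCm38).

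Sf3b2, another SF3b subunit and the most abundant gene of the list, was at 502, 416 and 383 FPKM in the NMDA + PBS libraries and at 565, 569 and 567 FPKM in the NMDA + SCF libraries. The groups again did not overlap, with the control closest to the SCF libraries being replicate 1. The log2 difference was 0.40 (SE 0.20, limma unadjusted p = 0.0807, adjusted p = 0.545), and 0.17 against replicate 1. Without mitochondrial genes it was 0.18 (unadjusted p = 0.256), and with voom 0.38 (unadjusted p = 0.00220, adjusted p = 0.398).

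The SF3a complex has 3 subunits, and each gave a different picture. Sf3a1 was at 71.5, 39.8 and 31.1 FPKM in the NMDA + PBS libraries and at 79.3, 84.1 and 96.4 FPKM in the NMDA + SCF libraries. Its groups did not overlap, but NMDA + PBS replicate 1 lay nearer to the NMDA + SCF libraries than to the other controls. The log2 difference was 0.94 (SE 0.30, limma unadjusted p = 0.0166, adjusted p = 0.536), 0.27 against replicate 1 and 1.27 against replicates 2 and 3. Sf3a3 was at 105 FPKM in NMDA + PBS replicate 1 and at only 5.50 and 2.91 FPKM in replicates 2 and 3, while the NMDA + SCF libraries were at 110.5, 106 and 112 FPKM. In other words, the library that shares its transcript list with the NMDA + SCF group had nearly their level, and the other controls were far below. The coding transcript of Sf3a3 was at 103 FPKM in NMDA + PBS replicate 1, between 102 and 108 FPKM in the NMDA + SCF libraries, and listed at 0 in the controls of list B. The fitted log2 difference of 2.99 (SE 1.11, limma unadjusted p = 0.0295, adjusted p = 0.536) was 0.06 against replicate 1 and 4.45 against replicates 2 and 3. Sf3a2 was at 7.88, 7.42 and 8.45 FPKM in the controls and at 16.4, 16.9 and 6.20 FPKM with SCF, so its groups overlapped through 1 NMDA + SCF library. A coding transcript of Sf3a2 that only list B holds was at 53.9 and 38.4 FPKM in the libraries of that list and has no value in the other files.

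The other SF3b subunits were mixed. Sf3b5 was at 70.4, 31.1 and 24.6 FPKM in the controls and at 58.6, 57.7 and 56.1 FPKM with SCF, below replicate 1 and above replicates 2 and 3. Sf3b6, which touches the branch point adenosine, was at 11.0, 8.62 and 37.0 FPKM in the controls and at 4.94, 7.34 and 9.03 FPKM with SCF, with the groups overlapping. Sf3b3 was low, at 3.04, 3.84 and 2.42 FPKM against 1.45, 1.88 and 1.47 FPKM, and its groups did not overlap. Its log2 difference was -0.65 (SE 0.30, limma unadjusted p = 0.0654, adjusted p = 0.541), with -0.64 against replicate 1 and -0.65 against replicates 2 and 3. Sf3b3 was thus one of the few genes with nearly equal differences against both kinds of control, but the FPKM came from 4 retained-intron transcripts, since its coding transcript was in list B only. Sf3b1, the large scaffold of SF3b, was at 7.04 to 10.6 FPKM in the controls and at 7.61 to 9.27 FPKM with SCF, all from 1 retained-intron transcript.

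**Figure D1:**
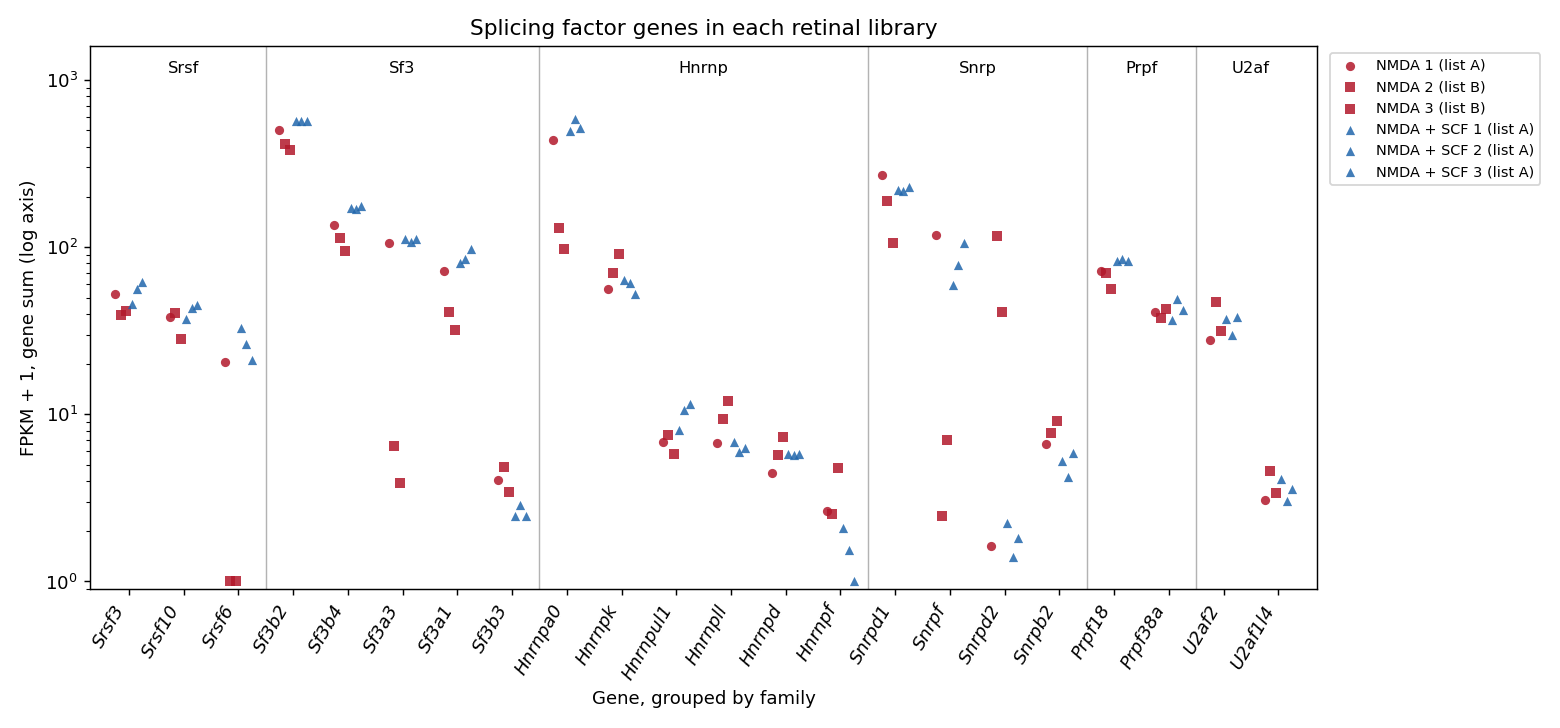
FPKM + 1 (log axis) of the splicing factor genes named by rule that have a mean of at least 1 FPKM over transcripts in all 6 files, 1 point per library, with NMDA + PBS in red (circles for replicate 1, squares for replicates 2 and 3) and NMDA + SCF in blue triangles. Sf3a3 stood at 105 FPKM in NMDA + PBS replicate 1, near the 3 NMDA + SCF libraries, and at 5.50 and 2.91 FPKM in the other controls, whereas Sf3b4 and Sf3b2 separated the groups with small spread among the NMDA + SCF libraries.

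Hnrnp proteins coat new transcripts and often repress the splice sites near which they bind. The 16 genes of the family had a median log2 fold change of -0.12, with 5 above 0 and 11 below, which was -0.24 after upper quartile scaling, -0.33 without mitochondrial genes, 0.32 against NMDA + PBS replicate 1 and -0.40 against replicates 2 and 3. Hnrnpa0, an intronless member that binds AU-rich RNA, was at 436, 129 and 96.6 FPKM in the NMDA + PBS libraries and at 497, 584 and 514 FPKM in the NMDA + SCF libraries. The groups did not overlap, and replicate 1 was again the control next to the NMDA + SCF libraries. The means were 221 ± 187 (SD, n = 3) and 532 ± 45.8 (SD, n = 3). The log2 difference was 1.59 (SE 0.52, limma unadjusted p = 0.0177, adjusted p = 0.536), of which 0.28 was found against replicate 1 and 2.24 against replicates 2 and 3. Hnrnpa0 has 1 transcript, protein-coding and in all 6 files, at chr13:58125879-58128556 on the minus strand (GRCm38), so its sum did not depend on which transcripts were listed for the gene.

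Hnrnpk, a poly(C)-binding member, was the second most abundant Hnrnp gene over the transcripts in all 6 files, at 55.0, 69.6 and 90.3 FPKM in the controls and at 62.7, 59.9 and 51.5 FPKM with SCF. These values overlapped, and the log2 difference was -0.27 (SE 0.22, limma unadjusted p = 0.247, adjusted p = 0.688). It was -0.45 without NMDA + PBS replicate 1, -0.095 without NMDA + PBS replicate 3 and -0.49 without mitochondrial genes. Hnrnpul1, an hnRNP U-like protein, was at 5.80, 6.53 and 4.82 FPKM in the controls and at 7.07, 9.56 and 10.5 FPKM with SCF. Every NMDA + SCF library was above every control, and the log2 difference of 0.57 (SE 0.24, limma unadjusted p = 0.0472, adjusted p = 0.536) was 0.55 against replicate 1, 0.58 against replicates 2 and 3, 0.46 after upper quartile scaling (unadjusted p = 0.0913) and 0.38 without mitochondrial genes, where its unadjusted p was also above 0.05. Hnrnpf, which binds runs of guanine, was at 1.64, 1.53 and 3.77 FPKM in the controls and at 1.08, 0.534 and 0 FPKM with SCF. The groups did not overlap, but the NMDA + SCF values rested on 2, 1 and 0 fragments, and the controls on 3, 4 and 9, so the log2 difference of -1.11 (SE 0.42, limma unadjusted p = 0.0314, adjusted p = 0.536) is one of a gene near the limit of counting.

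Some Hnrnp genes with a wide range among the controls relative to their level were low. Hnrnpc was at 0.207, 1.73 and 7.88 FPKM in the controls and at 1.11, 0.435 and 0.216 FPKM with SCF. Hnrnpm was at 1.26, 6.08 and 11.1 FPKM against 5.01, 2.02 and 1.97 FPKM. For both, replicate 1 was below all 3 NMDA + SCF libraries and the other controls were above them. Hnrnph1, which binds runs of guanine like Hnrnpf, and Hnrnpa2b1, a partner of Hnrnpa1, had the same order at higher levels. Coding transcripts carried 0% of the FPKM of Hnrnpm, 1.21% of that of Hnrnph1, 5.98% of that of Hnrnpa2b1 and 5.80% of that of Hnrnph3, so these are not levels of the coding RNA. Hnrnph1 was at 38.5 FPKM in replicate 1, 94.7 and 65.6 FPKM in replicates 2 and 3, and 63.7, 45.7 and 63.9 FPKM with SCF. Hnrnpa2b1 was at 17.9 FPKM in replicate 1, 49.8 and 50.2 FPKM in replicates 2 and 3, and 32.1, 34.7 and 23.3 FPKM with SCF. The log2 difference of Hnrnpa2b1 was 0.70 against replicate 1 and -0.73 against replicates 2 and 3. Hnrnph3 was at 12.1, 31.7 and 53.5 FPKM in the controls and at 20.9, 22.2 and 35.1 FPKM with SCF. The remaining genes of the family, Hnrnpab, Hnrnpd, Hnrnpdl, Hnrnpl, Hnrnpll, Hnrnpr and Hnrnpu, had log2 differences from -0.53 to 0.52 with unadjusted limma p of at least 0.0943.

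The Snrp genes code for the Sm proteins and for proteins particular to single snRNPs. The 11 genes had a median log2 fold change of 0.24 (0.07 without mitochondrial genes and 0.11 without NMDA + PBS replicate 1). Snrpd1, an Sm protein, was the most abundant, at 268, 188 and 105 FPKM in the controls and at 220.4, 217 and 229.7 FPKM with SCF. The NMDA + SCF libraries lay within the range of the controls, and the log2 difference was 0.35 (SE 0.33, limma unadjusted p = 0.323, adjusted p = 0.710). Snrpf and Snrpd2, which sit in the same Sm ring, differed widely between libraries, in opposite directions. Snrpf was at 118 FPKM in NMDA + PBS replicate 1, at 1.46 and 6.02 FPKM in replicates 2 and 3, and at 58.3, 77.8 and 105 FPKM with SCF. Snrpd2 was at 0.621 FPKM in replicate 1, at 116 and 40.1 FPKM in replicates 2 and 3, and at 1.23, 0.405 and 0.814 FPKM with SCF. For both genes the libraries divided by transcript list, with NMDA + PBS replicate 1 beside the NMDA + SCF libraries. Their log2 differences against replicate 1 were -0.58 for Snrpf and 0.14 for Snrpd2, against 4.25 and -5.28 from replicates 2 and 3. Both values came from single coding transcripts in all 6 files, which carried 654 and 253 fragments for Snrpd2 in replicates 2 and 3 and 3 in replicate 1.

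Snrpb2, the protein that joins U2 small nuclear RNA, was at 5.65, 6.74 and 8.07 FPKM in the controls and at 4.26, 3.25 and 4.88 FPKM with SCF. The groups did not overlap, and the log2 difference was -0.61 (SE 0.25, limma unadjusted p = 0.0464, adjusted p = 0.536), with -0.39 against replicate 1 and -0.72 against replicates 2 and 3. Of its FPKM, 10.4% came from coding transcripts. Snrpc, a protein of the U1 snRNP, was at 2.18, 3.36 and 2.94 FPKM in the controls and at 3.37, 3.37 and 3.67 FPKM with SCF, a separation without overlap that was narrower than the spread of the controls. Snrpa, Snrpa1 and Snrpg were at least 1 log2 unit higher with SCF than in replicate 1, by 1.03, 2.07 and 1.16, and by 0.59, -0.06 and -0.44 than in replicates 2 and 3. In replicate 1 they rested on 5, 1 and 6 fragments. Coding transcripts carried 0% of the FPKM of Snrpa and Snrpa1, 17.9% of that of Snrpg and 3.13% of that of Snrpc. The other Snrp genes in all 6 files were Snrpb, Snrpd3 and Snrpe, whose groups overlapped.

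SR proteins bind exonic enhancers and recruit the splicing machinery to nearby sites. The 7 Srsf genes had a median log2 fold change of 0.16, with 6 above 0 and 1 below (0.04 and 4 above 0 without mitochondrial genes). Without NMDA + PBS replicate 1 this median was 0.09, with 4 above 0. The most abundant were Srsf3 and Srsf10. Srsf3 was at 51.7, 38.1 and 40.2 FPKM in the controls and at 44.5, 54.9 and 60.7 FPKM with SCF, and Srsf10 was at 37.1, 39.3 and 27.4 FPKM in the controls and at 36.1, 42.2 and 44.4 FPKM with SCF. Both overlapped between the groups, with log2 differences of 0.30 (SE 0.20) and 0.25 (SE 0.20). Srsf6 had the highest fold change of the list, but from a single retained-intron transcript. That transcript was at 19.5 FPKM in NMDA + PBS replicate 1, listed at 0 in the other controls, and at 32.0, 25.2 and 20.3 FPKM with SCF. The groups did not overlap, with replicate 1 just under the lowest NMDA + SCF library, and the log2 difference of 3.27 (SE 1.10, limma unadjusted p = 0.0199, adjusted p = 0.536) was 0.37 against replicate 1. Srsf1, Srsf4, Srsf5 and Srsf11 were below 11 FPKM in each library, and their groups overlapped.

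Prpf proteins carry the spliceosome through its rearrangements. The median log2 fold change of the 10 genes was 0.05, and it was -0.05 after upper quartile scaling and -0.14 without mitochondrial genes. The most abundant were Prpf18, which acts in the second step of splicing, and Prpf38a, which is needed for activation of the complex. Prpf18 was at 71.0, 69.5 and 55.4 FPKM in the controls and at 82.0, 83.6 and 81.4 FPKM with SCF. The groups did not overlap and the NMDA + SCF libraries were close together, with a log2 difference of 0.34 (SE 0.17, limma unadjusted p = 0.0809, adjusted p = 0.545), which was 0.21 against replicate 1, 0.40 against replicates 2 and 3 and 0.12 without mitochondrial genes. Prpf38a was at 40.0, 36.6 and 41.7 FPKM in the controls and at 35.5, 47.9 and 41.2 FPKM with SCF, so that the groups overlapped fully. Prpf19, a ubiquitin ligase of the activated complex, was at 4.48, 5.62 and 4.63 FPKM in the controls and at 6.38, 6.62 and 6.08 FPKM with SCF, without overlap (log2 difference 0.32, SE 0.22, limma unadjusted p = 0.185, adjusted p = 0.652). Prpf31, whose human counterpart is mutated in a form of retinitis pigmentosa, was at 31.1, 18.5 and 16.3 FPKM in the controls and at 35.8, 22.8 and 32.3 FPKM with SCF, overlapping, all from 1 retained-intron transcript and 1 marked for decay.

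The U2AF family had 2 genes in all 6 files, and the groups overlapped for both. U2af2, the large subunit that binds the polypyrimidine tract, was at 26.9, 46.2 and 30.4 FPKM in the controls and at 36.3, 28.7 and 37.3 FPKM with SCF. U2af1l4, a relative of the small subunit, was at 2.09, 3.58 and 2.40 FPKM in the controls and at 3.12, 2.05 and 2.57 FPKM with SCF. The log2 differences were 0.01 (SE 0.24) and -0.04 (SE 0.31). U2af2 was almost wholly measured through retained-intron transcripts, with 0.557% of its FPKM in coding transcripts.

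When each kind of control was taken on its own, the picture of the list changed. Against NMDA + PBS replicate 1, the control of list A, all 3 NMDA + SCF libraries were higher for 30 of the 55 genes (23.8% of all genes were) and lower for 9 (23.6% of all genes were). The median log2 difference was 0.22 for the 55 genes, 0.06 for all genes and 0.11 for all genes with a mean of at least 1 FPKM. The shares of all genes include many low genes, whose changes this scale understates. The 4 genes Hnrnph3, Snrpa, Snrpa1 and Snrpg were higher by at least 1 log2 unit (2.94% of all genes were) and none was lower by as much (2.47% of all genes were). Against NMDA + PBS replicates 2 and 3, all 3 NMDA + SCF libraries were higher for 16 genes (14.8% of all genes were) and lower for 16 (17.3% of all genes were). The median log2 differences were -0.13 for the list, -0.03 for all genes and 0.04 for all genes with a mean of at least 1 FPKM. Here 6 genes, Hnrnpa0, Sf3a1, Sf3a3, Sf3b5, Snrpf and Srsf6, were higher by at least 1 log2 unit (3.69% of all genes were) and 7, Hnrnpc, Hnrnpf, Hnrnpm, Prpf39, Prpf4b, Sf3b6 and Snrpd2, were lower (5.92% of all genes were). The 2 comparisons share the NMDA + SCF libraries, and the first has 1 control library and no test.

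**Figure D2:**
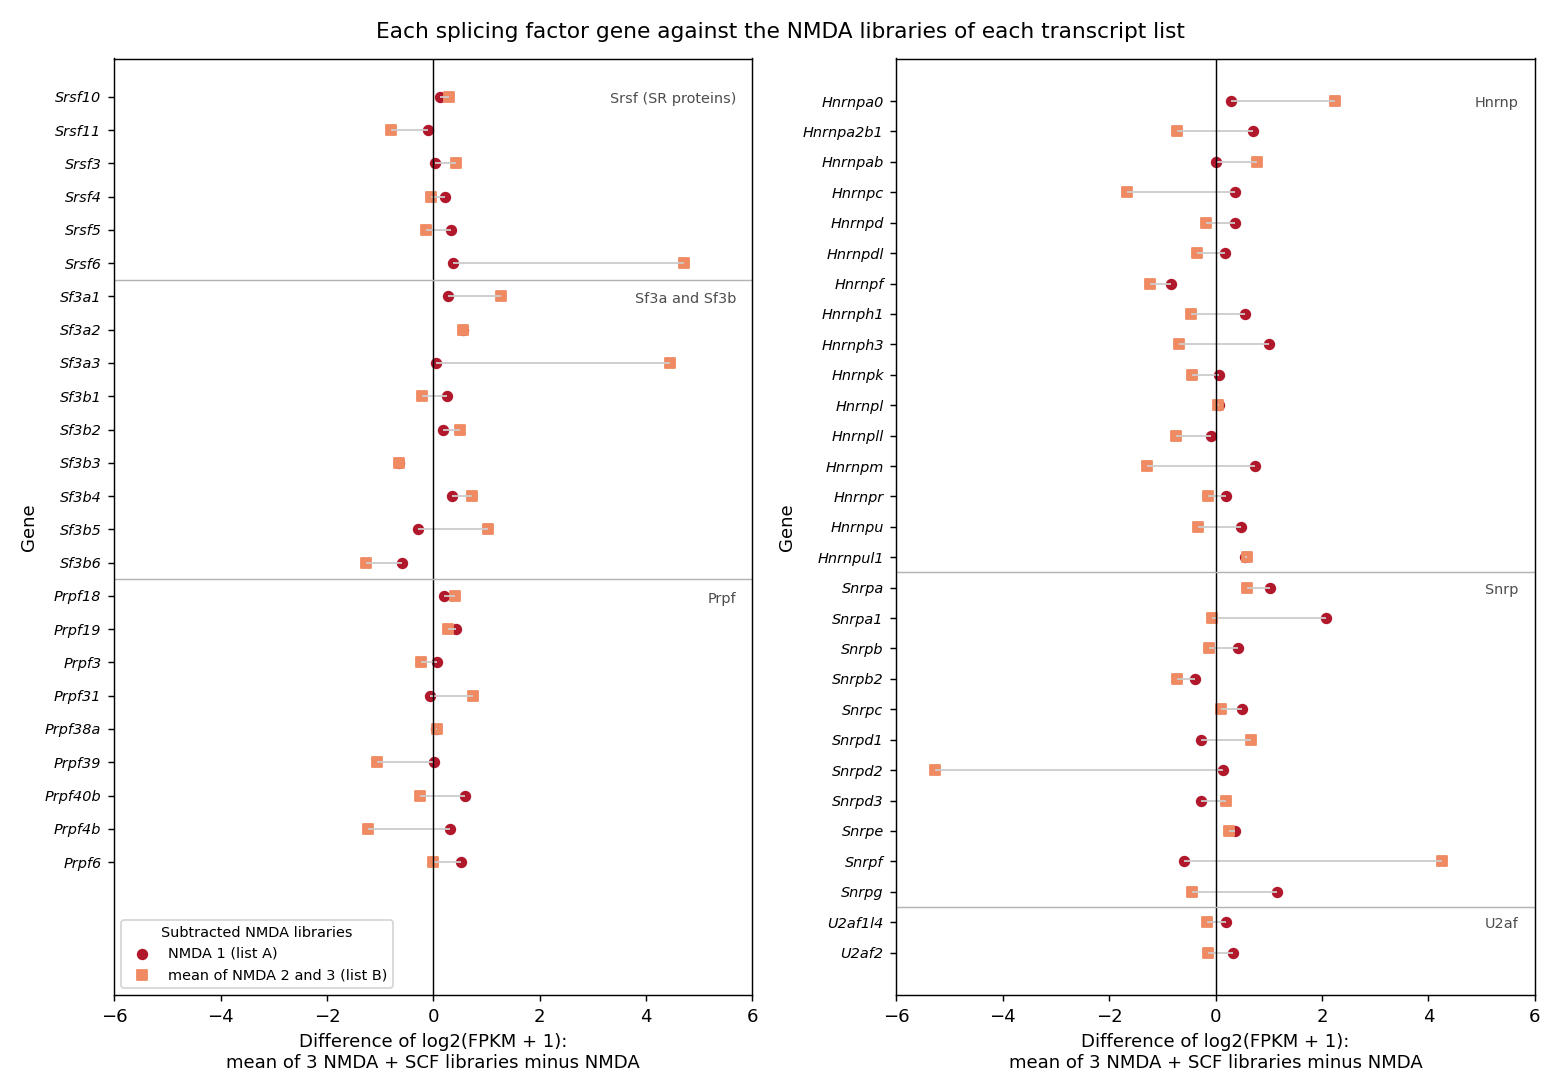
Difference of log2(FPKM + 1) of each of the 53 splicing factor genes with a mean of at least 1 FPKM, the mean of the 3 NMDA + SCF libraries minus NMDA + PBS replicate 1 (circles) or minus the mean of NMDA + PBS replicates 2 and 3 (squares), with a grey line joining the values of a gene. Sf3a3 and Snrpf lay at 0.06 and -0.58 against replicate 1 and at 4.45 and 4.25 against the other controls, while Hnrnpul1 and Sf3b3 had nearly the same value against both.

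The genes differed in how well their coding transcripts were covered. Of the 207 transcripts that the files list for the matched symbols, 150 were in all 6 files, among them 56 coding and 70 retained-intron transcripts. The listed transcripts differed between the files for 40 of the 64 genes and were the same for 24. List A alone held 19 transcripts of 18 of the genes, and list B alone 38 transcripts of 29. For 25 of the 55 genes most of the FPKM came from coding transcripts, and their median log2 fold change was 0.32, with 19 above 0 and 6 below (0.12 and 17 above 0 without mitochondrial genes). For the other 30 the median was -0.04, with 14 above 0 and 16 below (-0.22 and 6 above 0 without mitochondrial genes, -0.14 and 6 above 0 after upper quartile scaling). Against replicate 1 alone the order was the opposite, with medians of 0.14 and 0.32. The difference between the kinds of gene was not tested.

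Retained-intron transcripts are annotated RNAs that keep a stretch which the coding transcript removes. The coding share of the summed FPKM of the splicing factor genes was 86.2% in NMDA + PBS replicate 1, 71.5% and 68.4% in replicates 2 and 3, and 82.8%, 85.0% and 83.9% with SCF. The retained-intron share was 10.3% in replicate 1, 19.9% and 23.6% in replicates 2 and 3, and 12.8%, 11.1% and 11.8% with SCF. Replicate 1 thus sat below the NMDA + SCF libraries and the other controls above them. In all other genes the retained-intron share was 5.81% in replicate 1, 9.84% and 9.85% in replicates 2 and 3, and 8.48%, 7.86% and 7.81% with SCF, which is the same order. Summed coding FPKM of the list was 2006 in replicate 1, 1294 and 1083 in the other controls, and 2069, 2203 and 2173 with SCF. Summed retained-intron FPKM was 239, 360 and 374 in the controls and 321, 289 and 307 with SCF.

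**Figure D3:**
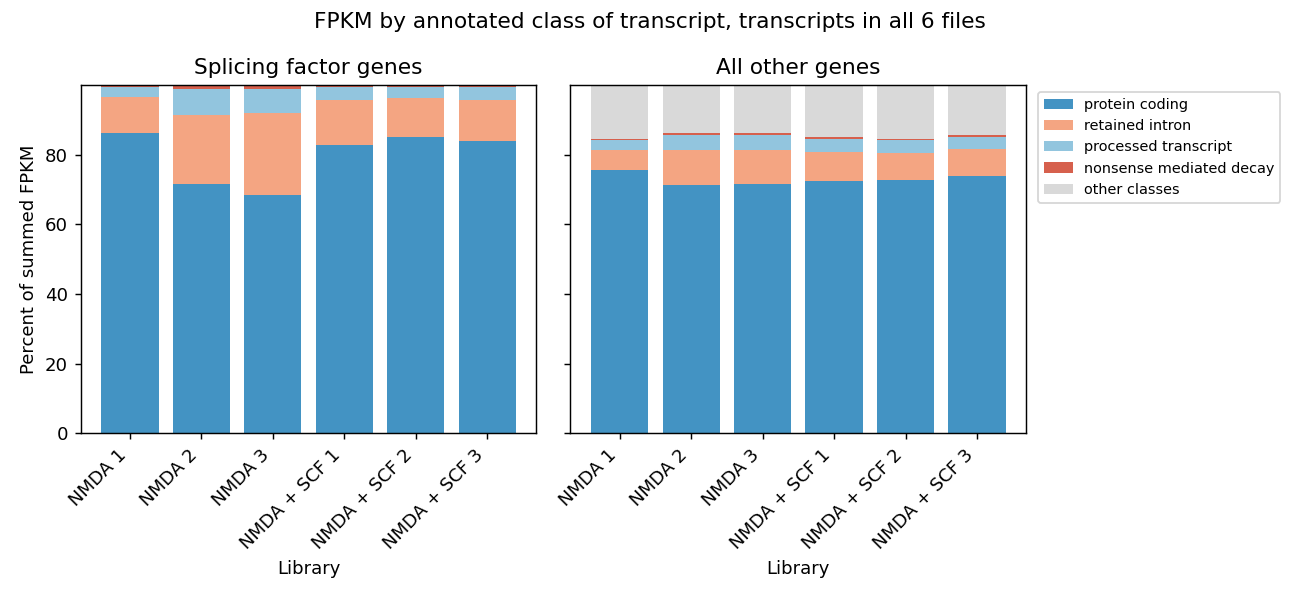
Percent of summed FPKM by annotated class of transcript in each library, for the splicing factor genes (left) and all other genes (right), over transcripts in all 6 files. The coding share of the splicing factor genes was 71.5% and 68.4% in NMDA + PBS replicates 2 and 3 and between 82.8% and 86.2% in the 4 libraries of list A.

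Some of the introns kept in these transcripts could be placed from the annotation. Of 67 retained-intron transcripts of the list that were searched, 20, from 18 genes, held at least 1 whole intron of a coding transcript of the same gene. The ends of such introns are shown for 4 genes, those named by rule whose transcripts of this kind had the highest mean FPKM. These are the junctions that the coding transcript joins and the retained-intron transcript reads through. The sequences are those of the transcripts in GENCODE M21, 5′ to 3′ on the strand of the gene, with the first and last bases of the intron, GT and AG, in capitals and 4 bases of exon on the outer side.
Srsf6 intron start: gatgGTgaggattccaaggg
Srsf6 intron end: actcccttcatgtgataaAGgtgg
Sf3a1 intron start: acagGTcggtgtgtagtgtt
Sf3a1 intron end: actgttccttgtccttgcAGcctt
U2af2 intron start: gcaaGTaaggtccattctga
U2af2 intron end: gtctcctattccctctgcAGgagg
Hnrnpk intron start: agatGTaagtatttttaatt
Hnrnpk intron end: tcggatcattaccattacAGgaac
On GRCm38 the introns lie at chr2:162932980-162933425 (Srsf6, plus strand, 446 bases), chr11:4177621-4178070 (Sf3a1, plus strand, 450 bases), chr7:5068797-5069443 (U2af2, plus strand, 647 bases) and chr13:58393242-58393691 (Hnrnpk, minus strand, 450 bases). The Srsf6 transcript was given above. The Sf3a1 transcript was at 9.37, 12.5 and 8.52 FPKM in the controls and at 12.1, 13.6 and 16.1 FPKM with SCF. The U2af2 transcript was at 9.74, 13.6 and 10.4 FPKM in the controls and at 6.29, 4.88 and 5.03 FPKM with SCF, the reverse order, without overlap. The Hnrnpk transcript was at 5.94, 2.54 and 2.28 FPKM in the controls and at 5.48, 10.8 and 7.52 FPKM with SCF. FPKM of a transcript does not show that a given intron was kept, since reads of its other exons count as well.

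Coding transcripts outside the shared list left some genes without a comparison. Of the 64 genes, 11 had coding transcripts in the files but none in all 6. Hnrnpul2, an hnRNP U-like protein, was listed only in NMDA + PBS replicates 2 and 3, at 269 and 231 FPKM, the highest level of these genes. Srsf6 had its coding transcript in list A, at 87.6 FPKM in NMDA + PBS replicate 1 and at 117, 129.7 and 126 FPKM with SCF. Hnrnpd, also in list A, was at 34.2 FPKM in replicate 1 and at 32.2, 39.0 and 34.8 FPKM with SCF, so that the control lay within the NMDA + SCF libraries. Srsf12 had its coding transcripts in list B, the more abundant at 9.92 and 8.51 FPKM. Hnrnpll had its coding transcript in list B, listed at 0 in both libraries. The 9 genes Hnrnpa1, Hnrnph2, Hnrnpul2, Prpf38b, Prpf4, Snrpn, Srsf12, Srsf2 and Srsf9 had no transcript in all 6 files, and the only Srsf2 transcript, in list A, was listed at 0 in all 4 libraries.

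Beyond the families, 85 further genes of splicing were taken as a list of regulators, kinases and core proteins, and 77 of them were tested. None passed an adjusted p of 0.05 in limma (0 of 77, against 0% of all genes), and at an unadjusted limma p of at most 0.05 there were 3 higher (3.9%, against 4.33% of all genes) and 6 lower (7.79%, against 4.9% of all genes). Crnkl1, a protein of the activated spliceosome, was at 42.1, 1.18 and 1.12 FPKM in the controls and at 39.9, 38.2 and 41.3 FPKM with SCF. Tra2b, an SR-like activator, was at 61.0, 14.4 and 18.6 FPKM in the controls and at 57.6, 68.7 and 69.7 FPKM with SCF. For both, replicate 1 was within or next to the NMDA + SCF libraries, with log2 differences of -0.08 and 0.09 against it. Msi1, an RNA-binding protein of progenitors and photoreceptors, was at 175, 72.0 and 48.2 FPKM in the controls and at 224, 190 and 224 FPKM with SCF, without overlap, with a log2 difference of 1.31 (SE 0.43, limma unadjusted p = 0.0182, adjusted p = 0.536) and of 0.28 against replicate 1, and 0.58 with voom. Ptbp2, the neuronal form of the polypyrimidine tract-binding protein, was at 16.6, 29.5 and 55.7 FPKM in the controls and at 13.2, 12.1 and 11.5 FPKM with SCF, and it did not overlap. Its log2 difference was -1.24 (SE 0.40, limma unadjusted p = 0.0161, adjusted p = 0.536), which was -0.41 against replicate 1 and -1.65 against replicates 2 and 3. Celf1, which binds GU-rich RNA, was at 3.97, 5.04 and 10.5 FPKM against 0.597, 2.94 and 2.25 FPKM, without overlap. Cdc5l, a core protein of the activated complex, was at 0.884, 10.7 and 13.8 FPKM against 0.488, 0.769 and 0.774 FPKM, also without overlap but with replicate 1 close to the NMDA + SCF libraries.

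Cell composition was read from marker lists, given as FPKM summed over the genes in all 6 files. Fewer cells of a type and less RNA per cell cannot be told apart in such bulk samples. Rod markers (5 of 5 genes, led by Sag) were at 1266, 1551 and 1191 in the controls and at 1848, 1582 and 1638 with SCF, and the sums did not overlap. Ganglion cell markers (4 of 5, led by Sncg) were at 417, 204 and 187 in the controls and at 274, 236 and 283 with SCF. Müller cell markers (3 of 3, led by Glul) were at 3968, 2015 and 2247 in the controls and at 3221, 3255 and 3068 with SCF, and microglial markers (3 of 5, led by C1qa, with Cx3cr1 listed at 0 in 4 libraries) at 134, 277 and 33.2 against 207, 288 and 290.1. The ganglion cell and Müller cell sums, with replicate 1 above the NMDA + SCF libraries and replicates 2 and 3 below them, had the order of Sncg and Glul, which Nefl, Thy1, Rbpms, Slc1a3 and Rlbp1 did not share.

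Cone markers (3 of 4, led by Arr3) were at 35.7, 68.4 and 60.3 in the controls and at 49.1, 42.1 and 47.7 with SCF. Bipolar cell markers (3 of 4, led by Trpm1, with Pcp2 listed at 0 in 4 libraries) were between 11.2 and 23.9 in the 6 libraries, amacrine cell markers (3 of 3, led by Gad1, with Tfap2b also listed at 0 in 4) between 7.49 and 10.7, and pigment epithelium markers (3 of 3, led by Lrat) between 12.9 and 17.4. Proliferation markers (2 of 4, led by Mki67) were at most 0.444. Lens markers (7 of 7, led by Crygs) were the most uneven, at 23.4, 170 and 295 in the controls and at 4772, 443 and 9062 with SCF. For Cryaa, an alpha crystallin, NMDA + PBS replicates 1 and 2 had a value of 0. The parts that lens RNA and cell composition have in the splicing factor levels were not tested.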

How the data were processed

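RNA of 6 retinal libraries (3 NMDA + PBS, 3 NMDA + SCF) was analysed. The authors selected mRNA with oligo(dT), read the libraries by Illumina sequencing and deposited FPKM for every transcript. The aligner is not given in the sources used here. The submitters' processing notes name mm9, but 98.2% of 63313 transcript positions equalled GENCODE M21, so coordinates are given on GRCm38. Assembled transcripts without a gene name (8.85 to 11.4% of FPKM) were left out, and of the table of sequencing totals 6 columns were not used. A gene's level was the sum of FPKM of those of its Ensembl transcripts that every file held (46933 in total). Values of FPKM times length were whole fragments (within 0.05) for 98.3 to 98.4% of values above 0.

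Groups were compared with limma 3.58.1 (R 4.3.3) on log2(FPKM + 1), a scale that understates changes of low genes, with a variance trend and two-sided Benjamini-Hochberg adjusted p over 25202 genes above 0 in at least 1 library. The fit was tested on simulated data, drawn independently for each library. These held no split by transcript list, so the test does not cover that split. Python 3.11.15 was used for the sums and figures. Members, gene lists and tests were chosen with earlier results of these data known. Named genes were, per family, the 2 with the highest mean FPKM; the 5 higher and 5 lower with the smallest p; up to 10 with the largest fold change among those without overlap; up to 6 whose coding transcripts were not in all 6 files; and 3 higher and 3 lower of the other splicing genes. Of the genes so named, 1 is not reported here. Further members were named after their values were seen. Alternatives were upper quartile scaling, a mean of at least 1 FPKM, a pseudocount of 0.1, all listed transcripts, the transcript list as a term, a replicate block, each library left out, limma voom on recovered fragments, removal of mitochondrial genes and, for calls, a fold of 2 with adjusted p of 0.001.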

Additional observations from a re-analysis of the deposited data

Results flagged for a closer look

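Transcripts in the files of list A only did not enter the gene sums. For 4 of the 19 such transcripts of splicing factor genes, all 3 NMDA + SCF libraries exceeded NMDA + PBS replicate 1, the single control with a value, with more than 3 fragments in each of the 3, as for 311 (4.13%) of the 7529 such transcripts of all genes. The mean with SCF was 1.42 times the control for the coding transcript of Srsf6, an SR protein, and 1.31 times for a retained-intron transcript of Srsf1, also an SR protein, which was at 20.5 FPKM in the control and at 25.8, 24.5 and 30.0 FPKM with SCF. It was 1.79 times for a retained-intron transcript of Hnrnpa2b1, at 4.22 FPKM in the control and at 6.10, 10.1 and 6.42 FPKM with SCF, and 1.97 times for one of Sf3a2, at 1.21 FPKM in the control and at 1.61, 2.37 and 3.18 FPKM with SCF, which is 3 fragments against 4, 6 and 8. Among transcripts with more than 3 fragments in the control, 2 had all 3 NMDA + SCF libraries below it (208 or 2.76% of the 7529 of all genes did), a retained-intron transcript of Srsf11 (1.49 FPKM against 0.890, 0.487 and 1.27 FPKM) and one of Hnrnpll marked for decay (0.964 FPKM against 0.106, 0.524 and 0.211 FPKM). The fragment limit was set on the side that was higher, so low transcripts enter by their higher side. With 1 control library, none of these differences could be tested.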

How the results depend on the processing

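The median log2 fold change of the splicing factor genes was -0.15 without mitochondrial genes, 0.22 with the transcript list as a term, and from -0.13 (without NMDA + PBS replicate 1) to 0.18 (without NMDA + PBS replicate 2) when single libraries were left out. At an adjusted p of 0.05, 53 genes of the whole table were called with the list as a term and 2 with voom on recovered fragments. At an unadjusted p of at most 0.05, the list as a term gave 3 splicing factor genes and 1682 genes of the whole table. With single libraries left out, calls at an adjusted p of 0.05 ranged from 0 to 849 genes in the whole table and from 0 to 7 splicing factor genes, and splicing factor genes at an unadjusted p of at most 0.05 from 1 to 23. The split of these was 6 higher and 4 lower as reported, 5 and 6 after upper quartile scaling, 5 and 5 without mitochondrial genes, 9 and 2 with voom and 7 and 7 over all listed transcripts. The thresholds of a fold of 2 and an adjusted p of 0.001 gave 0 genes, where 2324 genes of the whole table had an unadjusted limma p of at most 0.05.

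Of 231 log2 fold changes of the 29 named genes with a transcript in all 6 files under settings other than leaving out a library, 217 kept their direction and 14 did not. In the main fit no named gene was near the adjusted p threshold. Without NMDA + PBS replicate 1, in a fit that sets list A against list B, some passed it, such as Sf3a3 (limma adjusted p = 0.0018) and Hnrnpa0 (limma adjusted p = 0.0060). A kept direction does not mean a kept size. With the list as a term Sf3a3 was at 0.06, Cdc5l at -0.17 and Hnrnpa0 at 0.28, from 2.99, -2.04 and 1.59. With the list as a term the changed directions were -0.0785 for Crnkl1, 0.0723 for Hnrnpk, -0.27 for Snrpd1, 0.14 for Snrpd2, -0.58 for Snrpf and 0.20 for U2af1l4. With upper quartile scaling they were -0.0939 for Hnrnpd, -0.0581 for Prpf38a and -0.11 for U2af2. Without mitochondrial genes they were -0.17 for Hnrnpd, -0.15 for Prpf38a and -0.20 for U2af2, and with voom -0.0194 for Hnrnpd and -0.35 for U2af2. Scaling and the removal of mitochondrial genes rescale all genes of a library by the same factor (medians of all genes -0.05 and -0.09). Hnrnpd, Prpf38a and U2af2 were at 0.01, 0.06 and 0.01 in the main fit, so their changed signs under these settings say little about them. Leaving out single libraries, the range was -0.17 to 0.19 for Hnrnpd, -0.0403 to 0.17 for Prpf38a, -0.0148 to 0.66 for Snrpd1, -0.15 to 0.13 for U2af1l4 and -0.14 to 0.24 for U2af2. The causes were not tested. Same-numbered libraries did not deviate together (correlations over genes of -0.0503, -0.0459 and -0.0774), so the numbers were not taken as pairs. The replicate block left 0 genes of the whole table at an adjusted p of 0.05 and 7 splicing factor genes at an unadjusted p of at most 0.05, with a median of 0.04. Low genes such as Hnrnpf, with at most 9 fragments in each library, limit what the depth can show.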

Other observations

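The 4 processed pseudogenes that the symbol rule matched were kept out of all counts of splicing factor genes, and fragments of a parent gene and its copy cannot be told apart here. Snrpert, the most abundant, was at 105, 32.4 and 11.3 FPKM in the NMDA + PBS libraries and at 50.2, 36.0 and 70.5 FPKM in the NMDA + SCF libraries. Snrp1c-ps2 was at 4.02, 3.44 and 13.0 FPKM and at 2.40, 1.57 and 1.58 FPKM, with every control above every NMDA + SCF library. Hnrnpa1l2-ps and Hnrnpa1l2-ps2 were at most 0.522 FPKM in each library.

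The gene of the list with the most fragments, Sf3b2, had 5511, 5331 and 5477 fragments in the controls and 6243, 6375 and 6323 with SCF, so that fragments were nearly equal within each group while FPKM of the controls spread from 383 to 502, with totals from 3404307 to 4440563 fragments.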
